A study of Mus musculus with 9 samples.

Results

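*Prg4*, the gene of lubricin, was 1 of the 54534 genes in the gene tables, and its unique molecular identifiers (UMIs, counts of captured transcript molecules) were read by gene symbol in all 9 libraries of mouse knee cells. All mice were *Gdf5-Cre;Tom;Pdgfrα-H2BGFP*. Cre in these mice is driven by *Gdf5* regulatory sequence, which is active in the embryonic joint interzone, so that tdTomato (Tom) marks the adult descendants of interzone cells, and the *Pdgfrα* promoter drives a nuclear green fluorescent protein (GFP) in fibroblasts and progenitors. Live Tom+ cells (the *Gdf5* lineage) and Tom-GFP+ cells (*Pdgfrα*-expressing cells outside that lineage) were sorted after collagenase digestion of whole knees. The 4 groups were Tom+ steady-state (2 libraries), Tom-GFP+ steady-state (1 library), Tom+ injured (4 libraries) and Tom-GFP+ injured (2 libraries). Mice were 11 to 12 weeks old by the labels. Injured mice had the right knee opened beside the patella and a scratch made through the cartilage of the trochlear groove, and were analysed 6 days later. A library came from 1 mouse, the Tom-GFP+ libraries came from mice matched to Tom+ ones, and the sources used here do not give which libraries share a mouse.

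Lubricin is a secreted, heavily glycosylated mucin-like glycoprotein that coats the surfaces of synovium and articular cartilage and keeps them sliding with low friction. It is made by the fibroblast-like synoviocytes (FLS) that form the inner lining of the synovium and by chondrocytes of the superficial zone of articular cartilage. People and mice without it develop failing joint surfaces, and its protein carries somatomedin-B domains at its start, a hemopexin domain at its end and a long run of repeats between them to which the sugars are attached.

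*Prg4* (ENSMUSG00000006014) lies on the minus strand of chromosome 1 of GRCm38, from 150449412 to 150466165, with 8 annotated transcripts, all of them coding. The longest coding transcript, Prg4-206, has 13 exons and a coding sequence of 3663 bases. The run of repeats lies in exon 7, which holds 2286 bases. The stretch of that exon shown here (chr1:150455442-150455681, GRCm38, minus strand, coding bases 1240 to 1479) holds 10 copies of the 12-base unit, in capitals, that occurs 49 times in the coding sequence. It is shown because it is the part of the gene that makes its protein a mucin-like lubricant. The libraries were made with a kit that reads transcripts from their 5' end, so the counts come mainly from sequence ahead of it.

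Prg4-206 exon 7 stretch: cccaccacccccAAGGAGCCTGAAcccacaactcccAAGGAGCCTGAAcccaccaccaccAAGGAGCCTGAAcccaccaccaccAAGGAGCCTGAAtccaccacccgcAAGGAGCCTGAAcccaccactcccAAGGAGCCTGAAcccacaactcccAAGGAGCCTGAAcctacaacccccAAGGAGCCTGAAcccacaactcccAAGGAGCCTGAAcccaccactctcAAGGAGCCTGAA

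Libraries held 2866464 to 15033902 UMIs in all, and 4788 of 5161 barcodes passed the cell filter. The median depth of the cells kept was 8050.5 to 8647 UMIs in the steady-state libraries and 12223 to 18567 UMIs in the injured ones. Tom+ injured 1 was the deepest library and the only injured one deposited with the older form of gene table, which all steady-state libraries share. The sort held in the counts, since tdTomato transcripts were found in 84.1% to 97.7% of the stromal cells of Tom+ libraries and in 4.14% to 8.91% of those of Tom-GFP+ libraries. Of the 4776 different barcodes of kept cells, 12 occurred in more than 1 library.

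Cells were gated into classes by marker genes among which *Prg4* was not counted, so that its level could be read across classes. A class is named after its markers and is lining-like, tenocyte-like and so on by those markers only. Cells that no marker list claimed were divided by whether they held UMIs of *Thy1* and *Cd34*. This gave a *Thy1*+ remainder, a *Thy1*-negative *Cd34*+ remainder and a *Thy1*-negative *Cd34*-negative remainder. Which remainder a cell joins depends on its depth, since a cell without a UMI may still express the gene. The lining class (615 cells) was gated on *Clic5*, *Tspan15*, *Htra4*, *Col22a1* and *Itga6*. *Clic5* UMIs were found in 96.3% of its cells and *Thy1* UMIs in 4.72%.

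*Prg4* was found in 71.2% of all kept cells, but most of its transcripts lay in few of them. The lining class held 16.6% of all UMIs and 76.5% of the *Prg4* UMIs. Its pooled level was 430 *Prg4* UMIs per 10000 UMIs. Every lining cell held *Prg4*, 99.7% of them at 10 or more per 10000, and the median cell stood at 386. The range over lining cells was wide, from 2.65 to 1287 per 10000.

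After the lining class, the highest pooled levels were 110 per 10000 in the *Thy1*-negative *Cd34*-negative remainder (441 cells) and 86.8 in the superficial-zone chondrocyte class (119 cells), which was gated on *Clu*, *Nt5e*, *Sox9*, *Cytl1*, *Dkk3* and *Erg*. The *Thy1*-negative *Cd34*+ remainder (722 cells) followed at 43.7. The tenocyte class stood at 14.8 and the *Thy1*+ remainder, the sublining-type fibroblasts and with 1793 cells the most numerous class, at 12.0. The injury-induced class, gated on *Lrrc15*, *Adam12*, *Mdk*, *Tnc* and *Cthrc1*, stood at 8.18 and the osteoblast class at 2.59. The chondrocyte class, gated on deep cartilage genes such as *Col2a1* and *Acan*, stood at 11.0, but 1 of its 62 cells reached 922 and its median cell was at 0.

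**Figure D1:**
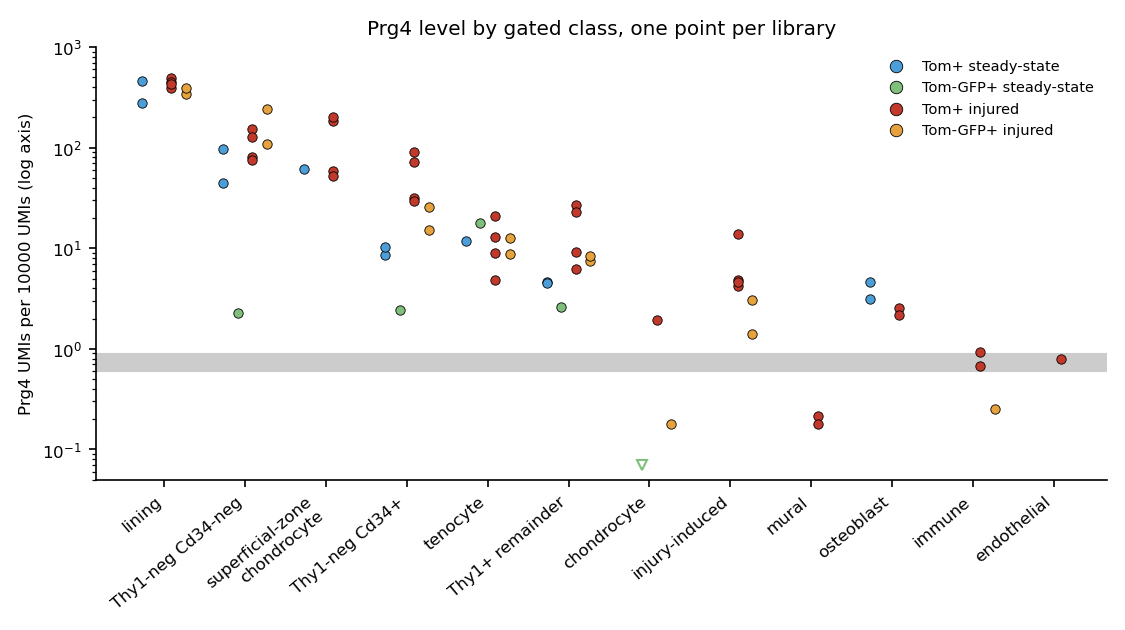
*Prg4* UMIs per 10000 UMIs (log axis) in each gated class, 1 point per library with at least 10 cells of the class, coloured by group. A grey band marks the 95% interval of the immune and endothelial background pooled over all libraries (0.596 to 0.892). An open triangle at the foot marks a library at 0. All 8 lining points lie between 280 and 488, above every point of every other class, and the *Thy1*-negative *Cd34*-negative remainder spans 2.28 to 240.

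The order of the classes was taken as the mean over libraries with at least 10 cells of a class. The lining class led with 403 ± 67.7 (SD, n = 8) and its lowest library, at 280, lay above the highest of any other class, at 240. The superficial-zone chondrocyte class at 111 ± 73.7 (SD, n = 5) and the *Thy1*-negative *Cd34*-negative remainder at 103 ± 67.9 (SD, n = 9) could not be ordered, since their ranges of 52.3 to 199 and 2.28 to 240 overlapped. The *Thy1*-negative *Cd34*+ remainder at 31.6 ± 29.9 (SD, n = 9), the tenocyte class at 12.3 ± 5.06 (SD, n = 8), the *Thy1*+ remainder at 10.3 ± 8.495 (SD, n = 9) and the injury-induced class at 5.36 ± 4.42 (SD, n = 6) formed a run in which each overlapped the next. The osteoblast class followed at 3.10 ± 1.08 (SD, n = 4), inside the range of the injury-induced class. The chondrocyte class stood at 0.705 ± 1.07 (SD, n = 3), with a range of 0 to 1.94, and the mural class at 0.198 ± 0.0279 (SD, n = 2). No library held 10 cells of both the chondrocyte and the osteoblast class, so these could not be ordered. In libraries with fewer of its cells, the chondrocyte class stood at 0.295 to 65.0. Ranges over libraries do not pair the classes of a library. Within a library, the injury-induced class stood at 0.188 to 0.748 of the *Thy1*+ remainder wherever it had enough cells. The *Thy1*-negative *Cd34*+ remainder stood at 1.83 to 4.68 times the *Thy1*+ remainder, except at 0.942 in Tom-GFP+ steady-state 1. The tenocyte class lay on both sides of it, at 0.569 to 6.75.

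A low count of *Prg4* was found in cells that should not make it. In the immune and endothelial classes together (132 cells, median 9324.5 UMIs) the level was 0.733 per 10000 (exact Poisson 95% interval 0.596 to 0.892, counting error only), and 47.7% of these cells held a *Prg4* UMI. No such cell reached 10 per 10000, the highest being 7.995. This is the background against which a share of cells with a UMI has to be read. Shares of 45.2% in the chondrocyte class, 46.3% in the osteoblast class and 26.6% in the mural class were at or below it, at median depths of 10821, 7860 and 8352 UMIs.

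Because depth sets how often a UMI is seen, each cell was also thinned to 3000 UMIs and gated anew. Shallower cells were left out, namely 39 Tom+ steady-state, 28 Tom-GFP+ steady-state, 47 Tom+ injured and 53 Tom-GFP+ injured cells. The share of cells with a *Prg4* UMI was then 23.3% in the immune and 15% in the endothelial class, and 100% in the lining class. It was 41.4% in the *Thy1*+ remainder (65.3% before thinning) and 52.3% in the injury-induced class (79.6% before thinning), both above the immune and endothelial shares. These are not the same cells before and after, since gating anew took the *Thy1*+ remainder from 1793 to 1143 cells. The *Thy1*-negative *Cd34*+ remainder went from 722 to 997 cells and the *Thy1*-negative *Cd34*-negative one from 441 to 1011. The osteoblast class was at 29.3% and the chondrocyte class at 17.3%. A level of at least 10 per 10000, which no immune or endothelial cell reached, was therefore used to count cells with *Prg4*. Of the 94 mural cells 1.06% reached it, the highest at 149 in Tom-GFP+ steady-state 1. That cell held a *Clic5* UMI and 18517 UMIs in all, against a class median of 8352.

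**Figure D2:**
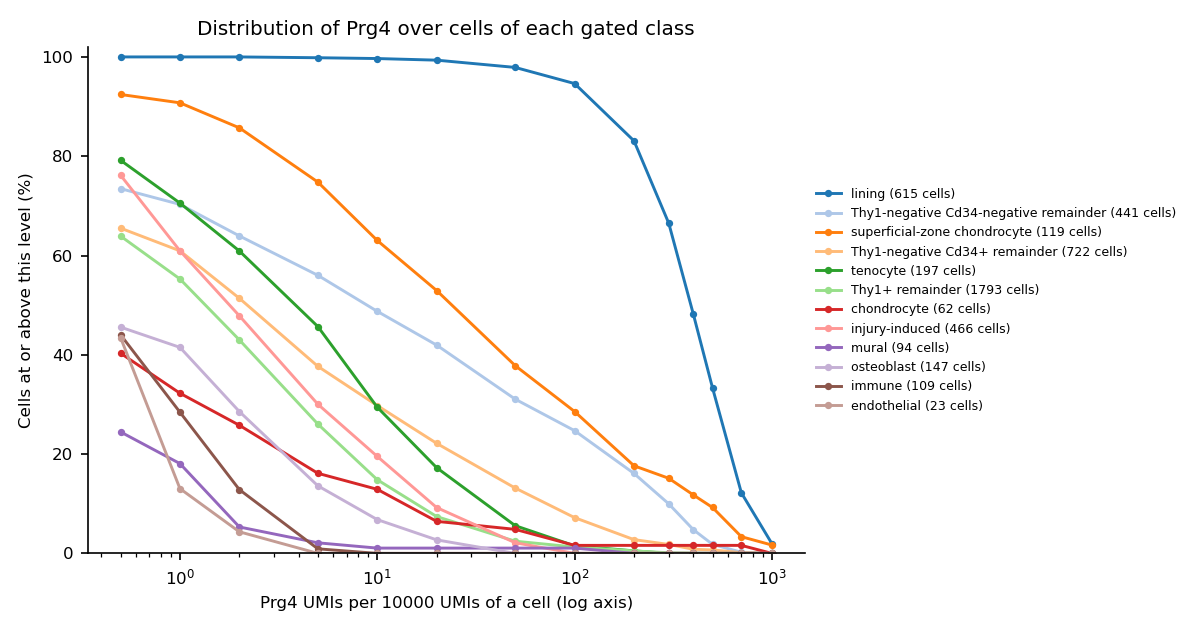
Share of the cells of each gated class (percent) at or above a given number of *Prg4* UMIs per 10000 UMIs of the cell (log axis). The lining curve stays near 100% up to 10 per 10000 and still holds 94.6% at 100, the *Thy1*-negative *Cd34*-negative remainder falls in a long slope through 48.8% at 10 and 24.7% at 100, and the *Thy1*+ remainder is at 14.8% and 1.28%.

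In the *Thy1*-negative *Cd34*-negative remainder cells differed widely. The median cell stood at 8.499 per 10000, but 24.7% of its cells were at 100 or more. In all, 805 kept cells stood at 100 or more, of which 223 were outside the lining class, with 109 in the *Thy1*-negative *Cd34*-negative remainder, 52 in the *Thy1*-negative *Cd34*+ remainder, 34 in the superficial-zone chondrocyte class and 23 in the *Thy1*+ remainder. Of these 223 cells, 66 held a *Clic5* UMI. Doublets, droplets with more than 1 cell, were not removed. The median doublet score of the 223 cells was 0.0607, against 0.0303 in the lining cells at the same level. Those in the *Thy1*+ remainder held a median of 21641 UMIs against 10684 in their class, and scored 0.0732 against 0.0476. All 23 were from injured libraries, 22 of them Tom+. The *Thy1*-negative *Cd34*+ ones held 17821 against 10143.5 UMIs, and the *Thy1*-negative *Cd34*-negative ones 14849 against 10640. The superficial-zone ones were shallower than their class, at 5852.5 against 7834. The share of doublets among the 223 cells was not tested.

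*Clic5*, a chloride intracellular channel protein that marks lining FLS, was used to divide the *Thy1*-negative stromal cells of each library. In Tom+ steady-state libraries, *Prg4* stood at 411 and 188 per 10000 in cells with *Clic5* UMIs and at 23.9 and 18.9 in cells without. In the Tom+ injured libraries it stood at 371, 453, 414 and 415 with *Clic5*, and at 50.2, 65.0, 56.6 and 39.3 without. The cells without *Clic5* were lower in every library, yet 5 to 11 of them in each Tom+ steady-state library and 24 to 46 in each Tom+ injured library were at 100 or more. Both sets took in every stromal class, the cartilage classes among them. The superficial-zone chondrocyte class held 4 and 6 cells at 100 or more in the Tom+ steady-state libraries and 1 to 12 in the Tom+ injured ones. Of its 34 such cells in all libraries, 3 held a *Clic5* UMI. A cell without a *Clic5* UMI may still express it at a level that this depth does not show.

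The superficial-zone chondrocyte class was not uniform either. Its 41 cells with UMIs of *Col2a1*, the type II collagen gene of cartilage, stood at 250 *Prg4* UMIs per 10000, and 92.7% of them were at 10 or more. Its 78 cells without *Col2a1* stood at 27.8, with 47.4% at 10 or more. The cells with *Col2a1* were the shallower ones, with a median of 6405 against 8809.5 UMIs. The 2 sets were set apart after the values were seen and were given no test.

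Summed counts of a class were compared with those of the *Thy1*+ remainder of the same library, by edgeR's quasi-likelihood test with the library as a block and Benjamini-Hochberg adjustment over all 11956 genes tested. In the lining class, *Prg4* was 61.96-fold and 98.4-fold higher in the Tom+ steady-state libraries, 14.7-fold to 68.7-fold higher in the Tom+ injured and 45.6-fold and 46.2-fold higher in the Tom-GFP+ injured libraries. The fitted log2 fold change was 5.29 ± 0.52 (SE), 39.1-fold (95% interval 18.9 to 81.0), with an adjusted p of 7.1e-12, where 34% of all genes passed. *Prg4* ranked 341 of these genes by p.

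The *Thy1*-negative *Cd34*-negative remainder exceeded the *Thy1*+ remainder in 8 of 9 libraries, by 3.03-fold to 28.6-fold, the exception being Tom-GFP+ steady-state with a ratio of 0.873 over 10 cells. Its fitted log2 fold change was 3.28 ± 0.48 (SE; adjusted p = 1.0e-06), where 12.7% of genes passed. The superficial-zone chondrocyte class was 2.17-fold to 31.9-fold higher in the 5 libraries with enough cells, with a fitted log2 fold change of 3.30 ± 0.53 (SE; adjusted p = 6.0e-06, 14.6% of genes passing). Lining cells in turn exceeded the *Thy1*-negative *Cd34*-negative remainder by 2.01 ± 0.46 on the log2 scale (SE), 4.02-fold (95% interval 2.13 to 7.59; adjusted p = 0.00075, 21.4% of genes passing).

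The other classes did not pass the test against the *Thy1*+ remainder. The tenocyte class differed by 0.75 ± 0.47 on the log2 scale (95% interval -0.20 to 1.71; adjusted p = 0.47, 6.57% of genes passing). The osteoblast class differed by -1.66 ± 0.65 (95% interval -2.97 to -0.35; adjusted p = 0.088, 13.1% passing) and the injury-induced class by -1.23 ± 0.51 (95% interval -2.26 to -0.20; adjusted p = 0.21, 4.16% passing). Without a filter on low counts, all 3 of these contrasts passed by edgeR. For the tenocyte and injury-induced contrasts this was the only 1 of 20 alternatives to pass. For the osteoblast contrast it was 1 of 3 that passed among 20.

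Within the *Thy1*+ remainder, 6 subsets were gated by the markers of the sublining fibroblast clusters F1 to F6. The F1 subset, with the markers *Anxa8*, *Slurp1* and *Ociad2*, had the highest *Prg4* level, pooled at 22.8 per 10000 over 383 cells, and 30.0% of its cells were at 10 or more. Over libraries it stood at 15.8 ± 9.60 (SD, n = 9). The F2, F3 and F4 subsets stood at 7.44 ± 6.60 (SD, n = 9), 8.35 ± 10.8 (SD, n = 8) and 6.29 ± 4.04 (SD, n = 9), so that the libraries of all 4 subsets overlapped. Within a library, F1 was the highest of these 4 except in Tom+ injured 2 (F3 at 34.4, F1 at 29.2) and Tom+ injured 4 (F4 at 10.1, F1 at 4.55). This order was not tested. F4 is the subset with *Dpp4* and *Pi16*, genes of the universal fibroblasts of many tissues. F5 and F6, pooled at 1.18 and 3.94, lay mostly in Tom-GFP+ libraries.

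The question of lineage was whether *Prg4* differs between cells from the joint interzone and other *Pdgfrα*-expressing cells of the knee. Summed over all stromal cells (outside the immune and endothelial classes), *Prg4* stood at 58.7 and 35.1 per 10000 in the Tom+ steady-state libraries and at 7.48 in the Tom-GFP+ steady-state library. After injury it stood at 74.4, 152, 184 and 126 in Tom+ libraries and at 30.2 and 83.8 in Tom-GFP+ libraries. The steady-state groups did not overlap, while the higher Tom-GFP+ injured library lay above the lowest Tom+ injured one.

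Neither difference passed edgeR's test, which had no term for the mouse, since which libraries share a mouse is not given. The steady-state log2 difference of Tom+ over Tom-GFP+ was 2.64 ± 0.77 (SE; 95% interval 0.85 to 4.43; adjusted p = 0.59), where 0.0135% of genes passed, while DESeq2 gave an adjusted p of 0.0056. With 1 Tom-GFP+ steady-state library, that library is assumed to vary like the others. The injured log2 difference was 1.22 ± 0.50 (SE; 95% interval 0.06 to 2.39; adjusted p = 0.76), where 0.0337% of genes passed. It was 0.67 without Tom-GFP+ injured 1 and 2.13 without Tom-GFP+ injured 2. These sums read the share of lining cells and the level within them together.

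The share of lining cells moved with both lineage and injury. Lining cells made up 5.81% and 5.17% of stromal cells in the Tom+ steady-state libraries and 0.491% (2 of 407 cells, exact binomial 95% interval 0.0596 to 1.76) in the Tom-GFP+ one. They made up 12.5%, 19.95%, 31.3% and 18.5% in the Tom+ injured and 4.25% and 12.8% in the Tom-GFP+ injured libraries. How much of the difference in *Prg4* sums goes with these shares was not tested.

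Within the lining class the level was 394, 488, 445 and 429 per 10000 in Tom+ injured and 340 and 388 in Tom-GFP+ injured libraries, and the 2 lining cells of the Tom-GFP+ steady-state library stood at 263. Both Tom-GFP+ values lay under all Tom+ ones, yet the log2 difference was 0.28 ± 0.19 (SE; 95% interval -0.12 to 0.68; adjusted p = 1.0), where 0.0221% of genes passed. In fold terms the interval ran from 0.923 to 1.604.

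In the *Thy1*+ remainder, Tom+ injured libraries stood at 26.7, 22.8, 9.25 and 6.24 per 10000 and Tom-GFP+ injured ones at 7.46 and 8.39, inside the Tom+ range. The log2 difference was 1.04 ± 0.57 (SE; 95% interval -0.31 to 2.39; adjusted p = 1.0), where 0.0169% of genes passed. The Tom-GFP+ steady-state library stood at 2.61.

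The question of injury was how *Prg4* changes 6 days after the cartilage was scratched. All 4 Tom+ injured libraries lay above both Tom+ steady-state ones over all stromal cells, at a mean of 134 ± 46.6 (SD, n = 4) against 46.9 ± 16.7 (SD, n = 2) per 10000. The fitted log2 difference of 1.58 ± 0.51 (SE), 3.00-fold (95% interval 1.32 to 6.83), missed the threshold at an adjusted p of 0.078, where 13% of genes passed. Leaving out either Tom-GFP+ injured library, which shares in the estimate of spread, brought edgeR's adjusted p to 0.048, and DESeq2 gave 0.0056. Leaving out any other library kept it above the threshold, with 0.31 without Tom+ steady-state 2, 0.19 without Tom+ steady-state 1 and 0.052 to 0.14 without 1 of the other libraries. Gene table format and injury overlap, and among libraries with the older table the values were 58.7 and 35.1 at steady state against 74.4 after injury, a log2 difference of 0.71. That injured arm is 1 library, Tom+ injured 1, so no test is given for it.

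In the Tom-GFP+ libraries the log2 difference with injury was 3.00 ± 0.79 (SE; 95% interval 1.18 to 4.83; adjusted p = 0.093), where 1.08% of genes passed, from 7.48 in the single steady-state library to 30.2 and 83.8. DESeq2 gave an adjusted p of 0.00021, and edgeR's log2 difference was 3.55 without Tom-GFP+ injured 1 and 2.10 without Tom-GFP+ injured 2. The gene table format changed with injury in every Tom-GFP+ library, so that format and injury cannot be told apart there without the Tom+ libraries. The injury effect in Tom+ less that in Tom-GFP+ cells was -1.42 ± 0.85 (SE; adjusted p = 1.0), and ran from -1.97 without Tom-GFP+ injured 1 to -0.51 without Tom-GFP+ injured 2. By edgeR 0% of genes passed for this interaction, with 320 genes at an unadjusted p under 0.05, and DESeq2 called 3.

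The share of stromal cells at 10 or more *Prg4* UMIs per 10000 was 20.2% ± 0.903 (SD, n = 2) in Tom+ steady-state and 44.5% ± 8.80 (SD, n = 4) in Tom+ injured libraries. The libraries did not overlap, with 19.6% and 20.8% against 31.8% to 52.0%. The difference of 24.3 percentage points had an exact permutation p of 0.0667 (two-sided), the smallest that 15 assignments allow, so this design cannot reach 0.05.

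**Figure D3:**
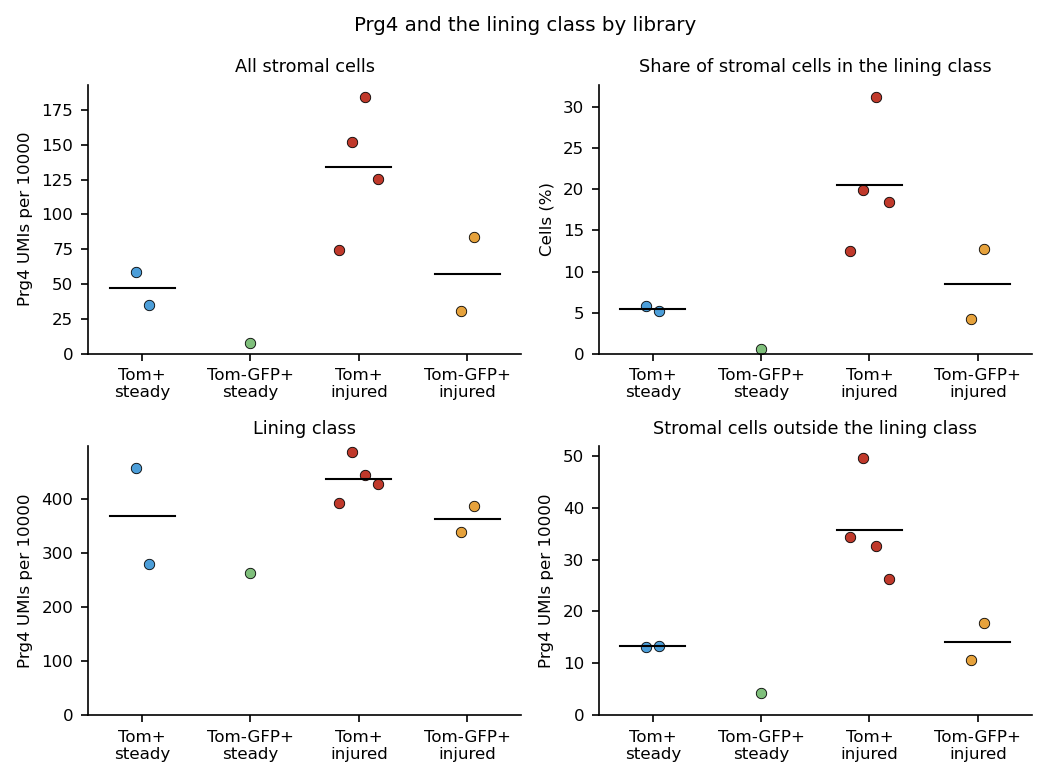
*Prg4* UMIs per 10000 UMIs in all stromal cells, in the lining class and outside it, and the lining share (percent of stromal cells), with 1 point per library and a bar at the mean of each group with more than 1 library. The stromal sums and the lining share lie higher in the 4 Tom+ injured libraries than in the 2 Tom+ steady-state ones, while the lining level itself spans 280 to 458 at steady state and 394 to 488 after injury.

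The level within lining cells stood at 458 and 280 per 10000 in the Tom+ steady-state libraries (19 and 28 cells), a range that took in 3 of the 4 injured values. The log2 difference was 0.30 ± 0.19 (SE), 1.23-fold (95% interval 0.936 to 1.63; adjusted p = 0.39), where 3.89% of genes passed.

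In the *Thy1*+ remainder, the level was 4.66 and 4.52 at steady state and 26.7, 22.8, 9.25 and 6.24 after injury, so that the groups did not overlap. The log2 difference of 1.78 ± 0.60 (SE), 3.43-fold (95% interval 1.29 to 9.09), had an adjusted p of 0.11, where 10.2% of genes passed. It passed in edgeR without Tom+ injured 4 (adjusted p = 0.022) and with DESeq2 (0.0025), and edgeR gave 0.09996 to 0.32 without any other single library. The median *Thy1*+ cell moved less, from 1.41 and 1.04 to 4.52, 2.68, 3.22 and 1.11.

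In the *Thy1*-negative *Cd34*-negative remainder, the level was 95.8 and 44.7 at steady state and 80.9, 155, 127 and 74.8 after injury. These overlapped, and the log2 difference was 0.60 ± 0.46 (SE; 95% interval -0.46 to 1.66; adjusted p = 0.63), where 0.554% of genes passed.

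The *Thy1*-negative *Cd34*+ remainder was singled out after its values were seen and has no test here. It stood at 8.54 and 10.2 per 10000 at steady state and at 89.8, 72, 31.3 and 29.2 after injury, and its Tom-GFP+ values were 2.46 at steady state and 15.1 and 25.5 after injury. The share of its cells at 10 or more was 6.25% and 10.1% in Tom+ steady-state libraries and 28.8% to 72.5% in Tom+ injured ones. Outside the lining class as a whole, also with no test, *Prg4* stood at 13.2 and 13.4 at steady state and at 34.3, 49.6, 32.6 and 26.1 after injury in Tom+ libraries. Depth was higher after injury in every Tom+ library, and its part in these differences was not tested.

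Stromal *Prg4* transcripts were also divided by the class they came from. In Tom+ steady-state libraries, 79.9% and 65.0% of the stromal *Prg4* UMIs lay in the lining class. In the Tom+ injured libraries these shares were 59.1%, 75.04%, 88.8% and 84.3%, on both sides of the steady-state values. In Tom-GFP+ libraries they were 44.5% at steady state, from 2 cells, and 66.9% and 82.7% after injury.

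**Figure D4:**
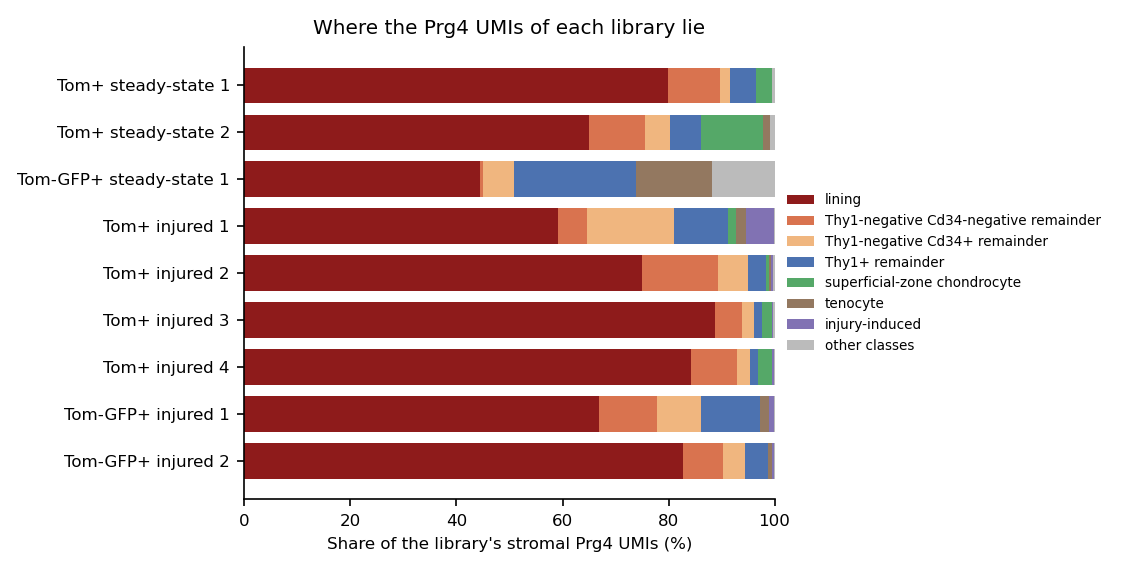
Share of the stromal *Prg4* UMIs of each library (percent, stacked to 100) that lay in each gated class. The lining class holds the largest part in each of the 9 libraries, between 44.5% and 88.8%.

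Genes that went with *Prg4* were sought among *Thy1*-negative stromal cells, within each of the 6 Tom+ libraries (123 to 481 cells), as the Spearman correlation of UMIs per 10000 for each of 5903 genes. The mean over the 6 libraries is given as a description, with no p, since cells of a library share depth and the total by which each gene is divided. *Prg4* itself correlated with total UMIs at 0.12 to 0.54. The median gene stood at 0.08, with 31 genes at 0.5 or more and 94 at -0.3 or less.

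At the high end, *F13a1*, the A chain of coagulation factor XIII, stood first with 0.72 (0.52 to 0.85 over the 6 libraries). *Htra4* (0.71), *Clic5* (0.68), *Col22a1* (0.68) and *Tspan15* (0.66) followed, and these 4 had gated the lining class. *Pcsk6*, a proprotein convertase, stood at 0.66, *Fn1*, fibronectin, at 0.65 and *Sparcl1*, a matricellular protein, at 0.64. *Pla1a*, a phospholipase, was at 0.63, *Hbegf*, a ligand of the EGF receptor, at 0.62, *Sema3a*, a secreted guidance factor, at 0.62, and *Aldh1a3*, a retinoic acid-forming enzyme, at 0.62. *Cystm1* (0.59), *Ctgf* (0.59) and the tetraspanin *Cd151* (0.58) completed the 15.

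At the other end, *Tmsb10*, an actin-binding thymosin, stood at -0.60, *Col1a2*, a chain of type I collagen, at -0.59 and *Serpinf1*, a secreted serpin, at -0.54. The small leucine-rich proteoglycans *Ogn* and *Lum* stood at -0.53 and -0.52, *Itm2a* at -0.50, the growth factor *Igf1* at -0.49 and *Mgp*, matrix Gla protein, at -0.46. All 23 genes kept their sign in 6 of 6 libraries, but they were picked by their mean over these same libraries, so this is no separate evidence.

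**Figure D5:**
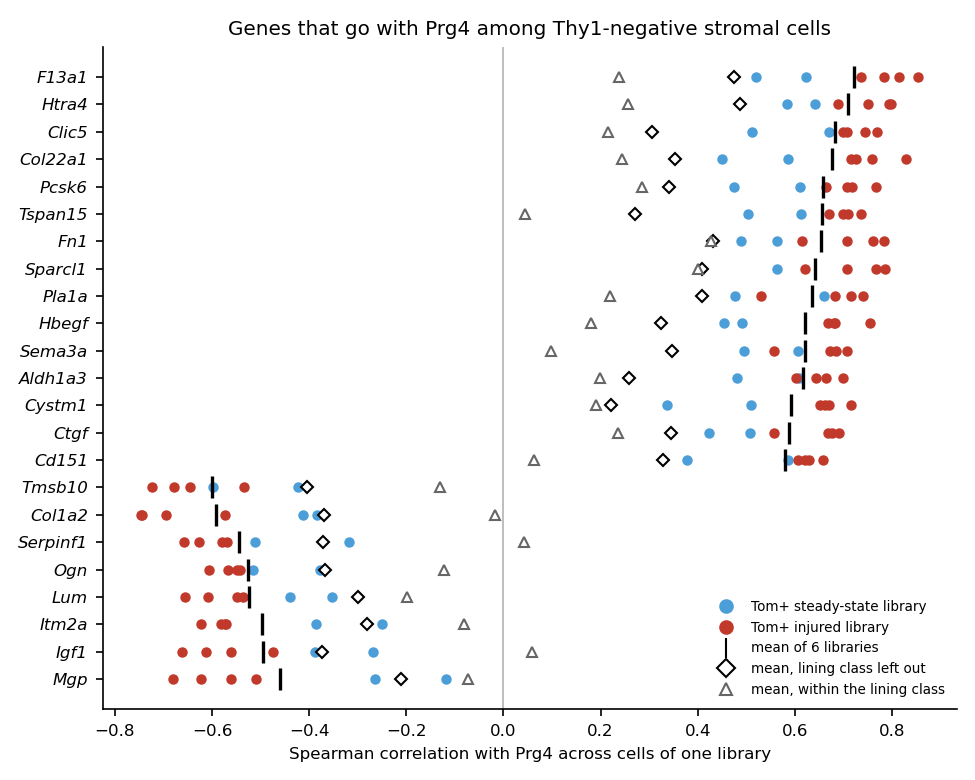
Spearman correlation with *Prg4* across the *Thy1*-negative stromal cells of a library, for the 15 genes with the highest and the 8 with the lowest mean, 1 point per Tom+ library, a bar for their mean, a diamond for the mean without the lining class and an open triangle for the mean within it. *F13a1* is highest at 0.72 and *Tmsb10* lowest at -0.60.

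The correlations were computed again without the lining class and within it. Without it, 9 of the 15 highest genes kept a place among the 15 highest, and the mean correlations were lower, with *Htra4* at 0.49, *F13a1* at 0.48, *Fn1* at 0.43, *Sparcl1* at 0.41 and *Pla1a* at 0.41. The *Thy1*-negative lining cells alone numbered 18 and 27 in the Tom+ steady-state and 88 to 160 in the Tom+ injured libraries. Among them, *Fn1* (0.43, 0.25 to 0.68 over libraries) and *Sparcl1* (0.40, 0.04 to 0.70) led. The acute-phase serpin *Serpina3n* (0.31, 0.02 to 0.65) and *Fgl2* (0.30, 0.05 to 0.44) followed. *Ptma* (-0.35), the glycolytic gene *Gapdh* (-0.34) and *Col3a1*, type III collagen (-0.34), were lowest there. *Fn1* and *Sparcl1* were among the 4 highest in both sets of cells. *Clic5* and *Tspan15* stood at 0.31 and 0.27 outside and 0.22 and 0.04 inside the lining class. The 2 Tom-GFP+ injured libraries gave means of 0.70 for *F13a1*, 0.62 for *Fn1* and 0.48 for *Sparcl1*.

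Across 67 sums of a class and library (12 classes, 9 libraries, 11955 genes, log2 CPM), the genes whose level followed that of *Prg4* most closely by Pearson correlation were *Htra4* (0.86), the uncharacterised *Gm17455* (0.82), *Cdon*, a cell surface co-receptor (0.81), and *Has1*, a hyaluronan synthase (0.81). *Sema3a* (0.79), *Rspo2*, an enhancer of Wnt signalling (0.79), the phosphatase *Dusp14* (0.79), *Pla2g2e*, a secreted phospholipase (0.78), *Dlx3* (0.75) and *3300005D01Rik* (0.75) came next. *Htra4* was a gate marker, and sums of 1 library share its depth.

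A list of regulators held transcription factors and growth factor signalling genes tied to *Prg4* or to joint lining and cartilage cells. Of its 17 genes, 8 were higher and 6 lower in the lining class than in the *Thy1*+ remainder, with a median log2 fold change of 0.76, against 15% higher, 18.9% lower and a median of -0.05 over all genes. The list was made with earlier results on these libraries known, and is no independent evidence. *Hbegf* had the largest log2 fold change at 5.67 ± 0.43 (SE; adjusted p = 1.3e-15). The homeobox factor *Dlx3* was higher by 4.24 ± 0.24 (adjusted p = 2.0e-21), the forkhead factor *Foxo1* by 3.24 ± 0.16 (1.6e-25) and *Sox5*, a factor best known from cartilage, by 3.23 ± 0.20 (2.7e-19).

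Levels of these genes were read in each library. *Foxo1* stood at 2.48 and 3.33 per 10000 in the lining class of Tom+ steady-state and at 1.73, 2.92, 2.32 and 2.63 in that of Tom+ injured libraries, and at 0.113 to 0.550 in every *Thy1*+ remainder, so that the classes did not overlap. *Creb5*, a transcription factor known to act on *Prg4* in superficial-zone cartilage and named here after its values were seen, stood at 2.52 to 5.41 in the lining class and 0.653 to 1.66 in the *Thy1*+ remainder. Its correlation with *Prg4* among *Thy1*-negative cells was 0.57, and those of *Sox5*, *Foxo1* and *Dlx3* were 0.55, 0.53 and 0.52. Outside the lining class they were 0.38 for *Creb5*, 0.37 for *Sox5*, 0.22 for *Foxo1* and 0.26 for *Dlx3*. Within the lining class the means were -0.08 for *Creb5* (-0.40 to 0.16 over libraries) and -0.06 for *Sox5* (-0.16 to 0.11). They were 0.20 for *Foxo1* (-0.10 to 0.41) and 0.09 for *Dlx3* (0.02 to 0.20).

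In the superficial-zone chondrocyte class the same list gave 8 members higher and 2 lower than in the *Thy1*+ remainder (all genes: 6.19% and 8.4%), at a median of 1.02 against -0.13 for all genes. *Erg* was highest at 5.99 ± 0.45 (SE), but was itself a gate marker of this class. *Hbegf* was higher by 3.11 ± 0.46 (adjusted p = 1.2e-06), *Nfatc2* by 2.52 ± 0.46 (3.0e-05) and *Nfatc1* by 2.15 ± 0.23 (1.2e-11). *Nfatc1* and *Nfatc2*, calcium-regulated transcription factors, were lower in the lining class, with log2 fold changes of -0.46 and -1.11. In the *Thy1*-negative *Cd34*-negative remainder, 5 of the 17 were higher and 1 lower than in the *Thy1*+ remainder (all genes: 5.7% and 7.04%), led by *Hbegf* at 2.14 ± 0.40, *Dlx3* at 1.85 ± 0.33 and *Sox5* at 1.52 ± 0.23.

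Hyaluronan is the other lubricant of the joint fluid, and the list held its synthases, its breakdown enzymes and its binding proteins. Of the 8 members tested in the lining class against the *Thy1*+ remainder, 4 were higher and 1 lower, where 15% of all genes were higher and 18.9% lower. *Has1* was higher by 2.19 ± 0.22 on the log2 scale (SE; adjusted p = 4.1e-12), *Cemip*, which takes part in hyaluronan breakdown, by 1.70 ± 0.42 (0.0010) and *Ugdh*, which makes a building block of hyaluronan, by 0.85 ± 0.20 (0.00076). *Has2*, the other synthase measured, was lower, with a log2 fold change of -2.39 ± 0.27 (3.2e-11). The list's median was 0.38, and of the 2 members not tested, *Has3* was under the filter on low counts and *Cemip2* matched no row by that symbol.

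Of the 5 receptors and binding partners of lubricin, 4 were higher and 1 lower in the lining class, against the same 15% and 18.9% of all genes. Fibronectin, *Fn1*, was higher by 2.10 ± 0.28 (SE; adjusted p = 2.8e-08), and the pattern recognition receptors *Tlr2* and *Tlr4* by 0.91 ± 0.19 and 0.77 ± 0.20. *Comp*, a cartilage matrix protein that binds lubricin, was lower, with a log2 fold change of -4.70 ± 0.55 (1.0e-09). Of 4 tested proteins with the hemopexin or somatomedin-B domains that lubricin also has, *Enpp3* alone passed, at -0.67 ± 0.21 (0.0078). Of 8 other genes known from the lining, 5 were higher and 2 lower (all genes: 15% and 18.9%), led by *F13a1* at 6.51 ± 0.48 and *Fgl2* at 3.09 ± 0.26. Several of these were picked as lining genes, so their direction here is no evidence apart from that choice.

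With injury, lining cells of the Tom+ libraries changed in a few of these genes while *Prg4* did not pass the test. Of 15 regulators tested, *Hbegf* rose by 1.20 ± 0.26 on the log2 scale (SE; adjusted p = 0.034) and *Tgfb3* fell by 1.88 on that scale (adjusted p = 0.013), against 1.61% of all genes higher and 2.28% lower. *Tgfb3* rested on 11 and 23 UMIs in the steady-state libraries. *Hbegf* stood at 8.55 and 13.6 per 10000 at steady state and at 16.3, 29.1, 27.4 and 24.7 after injury. Of 6 hyaluronan genes tested, *Tnfaip6*, a secreted hyaluronan-binding protein, passed. It was at 0 and 0.0520 per 10000 (0 and 2 UMIs) in the steady-state libraries and at 6.10, 13.9, 7.55 and 5.91 after injury. Of the 8 other lining genes, *F13a1* rose by 0.81 ± 0.19 (0.032), *Pdpn* by 0.92 ± 0.22 (0.034) and *Hbegf* as given, and *Vcam1* fell by 1.16 (0.049). *Vcam1* rested on 22 and 18 UMIs in the steady-state libraries. None of the 5 receptors and binding partners or the 3 tested hemopexin or somatomedin-B proteins passed by edgeR, with 0 of either list at an unadjusted p under 0.05.

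In the *Thy1*+ remainder, where the groups' *Prg4* values did not overlap but missed the threshold, injury moved 4 of 16 regulators (*Hbegf* higher by 4.16 ± 0.43, *Foxo1*, *Creb5* and *Tgfb2* lower, at -1.11, -0.89 and -0.64), against 3.98% of genes higher and 6.23% lower. The *Hbegf* rise started from 4 and 11 UMIs (0.0233 and 0.0514 per 10000) at steady state, where 3 counts would give 0.0175 and 0.0140. After injury it stood at 0.403 to 0.840, against 16.3 to 29.1 in the lining class of the same libraries. Of 8 hyaluronan genes, 4 rose: *Cemip* by 3.25 ± 0.68 (adjusted p = 0.018), *Has1* by 2.16 ± 0.50 (0.036), *Tnfaip6* by 1.81 ± 0.28 (0.0051) and *Cd44*, the hyaluronan receptor, by 1.74 ± 0.32 (0.013). *Cemip* was low, at 0 to 0.136 per 10000 over all libraries of this class. *Foxo1* stood there at 0.356 and 0.547 per 10000 at steady state and at 0.173, 0.253, 0.227 and 0.212 after injury, so that the groups did not overlap.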

How the data were processed

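Single-cell 5' libraries (kit version 2) were processed with Cell Ranger 3.0.2 on GRCm38.p6 by the submitters' processing notes, and the authors deposited UMI counts per gene and cell. A barcode counted as a cell from 500 genes and 1000 UMIs upward, provided that mitochondrial genes took no more than 10% of its UMIs. A cell joined the class with the highest mean z-score of log UMIs per 10000 over its markers, if this was at least 1 with at least 3 markers detected, and 268 cells lay within 0.1 of a boundary. F1 to F6 needed 2 markers. Doublets were not removed, and an alternative left out the 5% of each library with the highest Scrublet scores (scanpy 1.11.5).

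Counts were summed per library, or per class and library with at least 10 cells, filtered on low counts, scaled by TMM and tested by edgeR 4.0.16 (R 4.3.3; quasi-likelihood, robust) with Benjamini-Hochberg adjustment over all genes and a threshold of 0.05. Injury and lineage contrasts came from 1 fit over all 4 groups, and class contrasts had the library as a block. DESeq2 1.42.0 was an alternative. The fits and correlations were tested on simulated data. Libraries of a group came from different mice. The p-values of injury and lineage contrasts measure the spread between libraries within groups, pooled over all 4 groups, with no term for the mouse. Those of class contrasts measure how class differences vary between libraries, after the library's own level is taken out. Poisson and Clopper-Pearson intervals cover counting error only. Named genes were *Prg4*, up to 4 members per list (largest log2 fold change past the threshold, then highest level), the 15 highest and 8 lowest correlations and the 10 genes most like *Prg4* across sums. The gene, its lists and the tests were chosen with earlier results of these data known. Replicate numbers were not taken as pairs, since the labels do not say that a number stands for a shared mouse. Deviations of same-numbered libraries correlated at -0.13 to 0.26 and those of differently numbered ones at -0.27 to 0.27. That check cannot show or exclude pairing, because deviations in a group of 2 libraries mirror each other.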

Additional observations from a re-analysis of the deposited data

Results flagged for a closer look

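Among 51 sets of 4 libraries checked, 3 held a library far from the others, and chance flags about 1 in 20. In the injury-induced class, Tom+ injured 1 stood at 14.0 *Prg4* UMIs per 10000 and the other Tom+ injured libraries at 4.19 to 4.85. In the F3 subset of *Thy1*+ cells, Tom+ injured 2 stood at 34.4 and the others at 2.58 to 7.05. The correlation of *Hbegf* with *Prg4* among *Thy1*-negative cells was 0.756 in Tom+ injured 4 and 0.668 to 0.683 in the others.

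The 373 barcodes that failed the cell filter, which no comparison used, held *Prg4* at 39.2 UMIs per 10000 in all, with 0 to 138 by library, above the 0.0569 that 3 counts would give.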

How the results depend on the processing

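The class contrasts of the lining class, the *Thy1*-negative *Cd34*-negative remainder and the superficial-zone chondrocyte class kept their direction and passed under every alternative run. There were 356 alternatives over the 17 tests of summed counts and the permutation test on the share of cells. Of these, 339 kept the direction and the side of the threshold, 17 passed where the value reported did not, and none reversed. The 13 alternatives of the permutation test could not change side, since that design cannot reach 0.05. The cause was not tested. With DESeq2, injury in all stromal Tom+ cells (1.53), in Tom-GFP+ cells (2.94) and in the *Thy1*+ remainder (1.79), and lineage at steady state (2.64), passed. Without a filter on low counts, injury in lining cells (0.40, adjusted p = 0.049998) and the tenocyte (0.66), osteoblast (-1.76) and injury-induced (-1.27) contrasts passed. With the stricter cell filter (1000 genes, 5% mitochondrial UMIs) the osteoblast contrast was -1.66 (adjusted p = 0.04997). Among libraries with the older gene table, an alternative chosen after seeing the data, injury in the *Thy1*+ remainder was 2.51. Its injured arm is 1 library, so its p, counted among the 17, does not bear on the call.

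The labels link samples by replicate number only. With a replicate block, injury in the *Thy1*+ remainder was 2.37 (adjusted p = 0.00053) and lineage there 1.63 (0.031). The block gave 1.13 (0.29) for injury in all stromal Tom+ cells, with 1086 in place of 1927 genes called, and changed no other call. With the gene table format as a block, injury was 0.73 (0.47) in all stromal Tom+ cells, 1.94 (0.26) in Tom-GFP+ cells, 2.46 (0.069) in the *Thy1*+ remainder and 0.14 (0.89) in lining cells.

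Leaving out each library in turn gave 1.26 to 2.00 for injury in all stromal Tom+ cells, 2.10 to 3.55 in Tom-GFP+ cells (adjusted p = 0.04997 without Tom+ injured 1) and 1.46 to 2.08 in the *Thy1*+ remainder. It gave -2.06 to -1.21 for the osteoblast contrast (adjusted p = 0.029 without Tom-GFP+ steady-state 1), 0.04 to 0.73 for injury in lining cells, 0.18 to 1.23 for injury in the *Thy1*-negative *Cd34*-negative remainder, 0.67 to 2.13 for lineage after injury, -1.97 to -0.51 for the interaction and 21.8 to 28.6 points for the share of cells at 10 or more.

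Thinning to 3000 UMIs took the genes called from 4063 to 1709 for lining against *Thy1*+ cells, and from 1209 to 445 for injury in *Thy1*+ cells. Of 234 alternatives for the correlations, 204 moved by less than the spread between libraries and 30 moved more, all of them without the lining class or with thinned cells. Without the lining class, 9 of the 15 highest genes kept their place. Depth limits the reading of shares of cells with a UMI in the osteoblast, mural and chondrocyte classes.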
